A study of Mus musculus with 30 samples.

Results

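The genes described are the Wnt ligands, their Frizzled receptors and 2 families of secreted antagonists, the Sfrp and Dkk proteins, in mouse brain tumors and normal mouse brain. They were chosen by symbol: every gene of the array's probe-to-gene table whose symbol is Wnt or Fzd followed by a number (with a or b where there is one), Sfrp1 to Sfrp5 or Dkk1 to Dkk4, measured by a probe set that names 1 gene. The rule found 37 members among 19938 genes, namely 19 Wnt ligands, 10 Frizzled receptors, 4 Sfrp genes and 4 Dkk genes. No expression value entered the choice.

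Wnt ligands are secreted lipid-modified glycoproteins that bind Frizzled receptors at the cell surface. In the canonical branch they act with an Lrp co-receptor to spare beta-catenin from degradation, so that it reaches TCF/LEF factors on DNA. Other branches, of which Wnt5a is the best-known ligand, act through planar polarity proteins or the Ror receptors on cell shape and movement. In the brain the pathway patterns cortex and hippocampus during development and supports neural progenitors, vessel formation and synapses. Sfrp proteins carry a Frizzled-like domain and bind Wnts in the extracellular space, while Dkk1, Dkk2 and Dkk4 act on the Lrp co-receptors.

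The arrays measured total RNA of dissected tissue. Tumors had formed after injection of a CRE recombinase construct driven by the GFAP, NES or SYN1 promoter, so the promoter limits the cells in which CRE was made. GFAP is a gene of astrocytes and adult neural stem cells, NES of neural progenitors and SYN1 of neurons. There were 3 GFAP tumors of the subventricular zone (SVZ), 4 NES hippocampus tumors, 7 GFAP hippocampus tumors, 4 SYN1 cortex tumors and 4 GFAP cortex tumors, beside 4 arrays of normal hippocampus and 4 of normal cortex, which carry no promoter in the labels. Strain, age, target alleles and other cargo of the constructs are not given in the sources used here. The labels number the tumors within a group but do not say that each array is a separate animal, so the p-values rest on scatter among arrays that may be technical.

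Values are log2 signal as deposited, with array medians from 7.03 to 7.30, and signal includes background, so a low value does not show that a gene is silent. Levels are compared between groups for 1 probe set at a time and never between genes. Differences are on the log2 scale and are given ± the standard error (SE) of a limma fit of 7 group means to all 30 arrays, and a gene was called at a Benjamini-Hochberg adjusted p under 0.05 over the 19938 genes. Of the 37 members, 30 lay above the 30% of genes with the lowest mean signal. Dkk4, Wnt1, Wnt16, Wnt3, Wnt6, Wnt8a and Wnt8b lay below it. On principal components 4 tumor arrays stood apart from their groups: GFAP cortex tumor 1 and GFAP hippocampus tumors 5, 6 and 7, at -67.05, -74.68, -55.86 and -61.82 on the second component, which held 14.2% of the variance. Counts of called members and of called genes in the lists were also made without these 4 arrays. Regional markers followed the labels of normal tissue: the mean of 6 hippocampus markers, in log2 units relative to normal brain, was 0.89 to 1.28 in normal hippocampus and -1.18 to -1.03 in normal cortex. All 5 measured proliferation markers were called higher in each tumor group.

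Upstream sequence is shown for the 5 of the 8 members with the lowest adjusted p that matched the RefSeq promoter table: Fzd1 and Fzd7 among the receptors that rose, and Wnt4, Wnt7a and Wnt9a among the ligands that fell. The other members of the 8 are Wnt5a, Dkk3 and Fzd3. The windows hold 300 bases around the annotated start and come from RefSeq on GRCm38.p6. They are chr5:4758167-4758466 (minus strand) for Fzd1, chr1:59481897-59482196 (plus strand) for Fzd7, chr4:137277385-137277684 (plus strand) for Wnt4, chr6:91411304-91411603 (minus strand) for Wnt7a and chr11:59306680-59306979 (plus strand) for Wnt9a, each read 5′ to 3′ on the strand of the gene. Capitals mark matches, on either strand, to the GC box GGGCGG or the TATA box TATAAA, and matches that share bases run together.
Fzd1: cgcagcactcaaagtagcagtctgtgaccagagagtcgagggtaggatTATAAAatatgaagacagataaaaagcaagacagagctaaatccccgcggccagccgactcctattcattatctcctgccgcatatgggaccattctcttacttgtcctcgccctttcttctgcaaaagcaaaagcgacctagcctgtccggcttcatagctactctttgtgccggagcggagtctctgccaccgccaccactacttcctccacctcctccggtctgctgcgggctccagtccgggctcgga
Fzd7: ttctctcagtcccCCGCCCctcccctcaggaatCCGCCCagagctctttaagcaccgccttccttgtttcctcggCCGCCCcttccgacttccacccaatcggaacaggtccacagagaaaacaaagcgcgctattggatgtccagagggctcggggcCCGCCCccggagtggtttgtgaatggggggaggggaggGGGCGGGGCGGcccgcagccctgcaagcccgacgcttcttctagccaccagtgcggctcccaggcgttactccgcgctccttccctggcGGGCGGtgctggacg
Wnt4: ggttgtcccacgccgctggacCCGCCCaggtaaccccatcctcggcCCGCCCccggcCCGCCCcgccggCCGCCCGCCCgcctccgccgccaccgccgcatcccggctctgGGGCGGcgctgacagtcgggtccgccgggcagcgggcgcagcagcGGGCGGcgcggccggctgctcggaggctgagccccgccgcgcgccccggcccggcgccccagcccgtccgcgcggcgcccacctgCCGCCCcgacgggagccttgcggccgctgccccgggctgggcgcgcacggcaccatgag
Wnt7a: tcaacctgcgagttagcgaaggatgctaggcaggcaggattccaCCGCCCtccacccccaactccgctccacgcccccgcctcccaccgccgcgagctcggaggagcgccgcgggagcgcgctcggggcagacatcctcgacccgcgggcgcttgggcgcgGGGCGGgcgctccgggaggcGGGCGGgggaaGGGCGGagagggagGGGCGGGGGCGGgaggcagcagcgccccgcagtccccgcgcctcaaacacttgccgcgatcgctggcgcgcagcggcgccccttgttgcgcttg
Wnt9a: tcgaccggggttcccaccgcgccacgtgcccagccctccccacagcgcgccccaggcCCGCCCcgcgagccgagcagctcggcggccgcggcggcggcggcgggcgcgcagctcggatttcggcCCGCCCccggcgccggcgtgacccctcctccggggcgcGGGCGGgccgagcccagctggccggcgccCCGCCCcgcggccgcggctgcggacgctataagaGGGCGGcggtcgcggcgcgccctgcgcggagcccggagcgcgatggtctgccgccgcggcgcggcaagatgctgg

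Of the 37 members, 25 matched the RefSeq promoter table, with 28 windows. The window of Fzd1 held 1 TATA box, no GC box and 54.0% G and C. The other windows shown had no TATA box and held 7 GC boxes in Fzd7 (66.7% G and C), 8 in Wnt4 (84.3%), 6 in Wnt7a (76.0%) and 5 in Wnt9a (83.3%). A GC box stood in 21 of the 28 windows of members and in 35.7% of all 32851 windows of the table, and TATAAA stood in 4 of 28 and in 13.6%. The median G and C content was 68.7% in the members' windows and 52.7% in all windows. The TCF/LEF motifs CTTTGAT and CTTTGAA were searched on both strands, and 3 of the 28 windows held one or the other. CTTTGAT stood in 1 window each of Wnt11 and Wnt5b, and CTTTGAA in that of Dkk1. Over the whole table CTTTGAT was present in 3.7% and CTTTGAA in 5.1%, each counted alone. A match is a description of these letters and says nothing of binding.

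Against normal brain, Wnt5a, Fzd7 and Fzd8 were called higher in every tumor group but NES hippocampus tumors. Dkk3 and Wnt4 were called lower in the same groups, and Fzd1 was called higher in all 5 groups. In NES tumors Wnt5a and Fzd7 still lay above every normal hippocampus array and Dkk3 below every one. The missing calls there do not show that these genes were unchanged. Fzd3 was called lower in SVZ and both cortex tumor groups. In GFAP SVZ tumors, which have no normal tissue of their own region and were set against the mean of both normal tissues, 11 of the 37 members were called, 7 higher and 4 lower, where 37.6% of all genes were called, 16.2% higher and 21.4% lower. In NES hippocampus tumors 2 members were called, both higher, where 8.56% of all genes were called and 5.69% were called higher. In GFAP hippocampus tumors 20 members were called, 7 higher and 13 lower, where 41.4% of all genes were called, 16.1% higher and 25.2% lower. In SYN1 cortex tumors 15 members were called, 6 higher and 9 lower, where 38.7% of all genes were called, 18.2% higher and 20.5% lower. In GFAP cortex tumors 9 members were called, 4 higher and 5 lower, where 27.8% of all genes were called, 9.00% higher and 18.8% lower. The members' own shares of calls, in the same order, were 29.7%, 5.41%, 54.1%, 40.5% and 24.3%, beside the shares of all genes just given. The median difference of the members and of all genes was -0.03 and -0.00 in SVZ tumors, -0.11 and -0.05 in NES tumors, -0.19 and -0.08 in GFAP hippocampus tumors, -0.05 and -0.04 in SYN1 tumors and -0.06 and -0.10 in GFAP cortex tumors.

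Both hippocampus comparisons share the normal hippocampus arrays, both cortex comparisons share the normal cortex arrays, and the SVZ comparison uses all of them. Counting members whose tumor and normal arrays do not overlap gave 6 higher and 6 lower in SVZ tumors (42.3% of all genes did not overlap), 7 and 7 in NES tumors (24.6%), 3 and 10 in GFAP hippocampus tumors (26.2%), 8 and 8 in SYN1 tumors (49.0%) and 5 and 6 in GFAP cortex tumors (37.1%). Without the 4 arrays that stand apart, 11 members were called in SVZ tumors (7 higher and 4 lower), 7 in NES tumors (3 and 4), 25 in GFAP hippocampus tumors (11 and 14), 17 in SYN1 tumors (8 and 9) and 12 in GFAP cortex tumors (5 and 7). In that setting 47.6%, 19.4%, 52.4%, 48.7% and 33.3% of all genes were called in the same order, so calls increased over all genes as well. With each array centred on its median, the split in GFAP hippocampus tumors was 7 higher and 8 lower. The split in NES tumors was 2 higher and 1 lower after centring and 1 and 1 after quantile normalization. The heat map of differences for all 37 members shows where the calls fall.

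**Figure D1:**
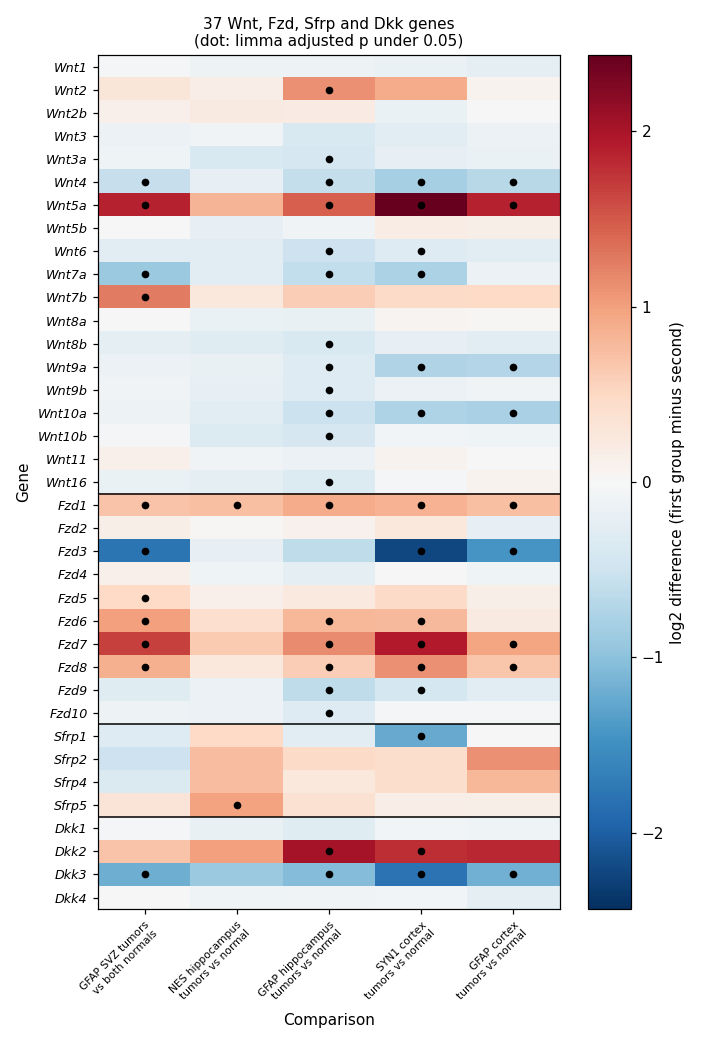
Log2 difference of each of the 37 members (rows, in the order Wnt, Fzd, Sfrp, Dkk) in 5 comparisons of tumors with normal tissue (columns). Red is higher and blue lower in tumors, and a dot marks a limma adjusted p under 0.05. Wnt5a, Fzd1, Fzd6, Fzd7, Fzd8 and Dkk2 are among the red rows and Fzd3, Dkk3 and Wnt4 among the blue rows. NES hippocampus tumors carry 2 dots.

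Wnt5a, the ligand best known for beta-catenin-independent signaling, had the lowest adjusted p of all members. Its signal was 8.62, 9.06 and 9.42 in SVZ tumors and 9.32, 7.98, 7.88 and 7.65 in NES hippocampus tumors. GFAP hippocampus tumors had a lowest value of 7.31, a median of 9.07 and a highest of 9.49, against 7.42, 7.28, 7.51 and 7.32 in normal hippocampus. SYN1 cortex tumors read 9.23, 9.10, 9.55 and 9.68 and GFAP cortex tumors 9.20, 8.17, 9.00 and 8.97, against 6.97, 7.07, 6.83 and 6.96 in normal cortex. Every tumor array lay above the normal arrays of its region except GFAP hippocampus tumor 5, which lay among them. The rise was 1.87 ± 0.34 (adjusted p = 9.75e-05) in SVZ tumors, 1.46 ± 0.31 (adjusted p = 0.000609) in GFAP hippocampus tumors, 2.44 ± 0.35 (adjusted p = 7.01e-06) in SYN1 tumors and 1.88 ± 0.35 (adjusted p = 0.000456) in GFAP cortex tumors. In NES tumors the difference of 0.83 ± 0.35 (adjusted p = 0.164) did not pass; NES tumor 1 at 9.32 stood far above the other 3 NES tumors. No array left out and no other setting removed any of the 4 calls, and without the 4 arrays that stand apart the NES difference was called as well (0.83 ± 0.27 (adjusted p = 0.0351)). Fold changes were 3.64, 2.76, 5.41 and 3.67 in the 4 groups called, in that order.

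Wnt2, a canonical ligand, and Wnt7b, a ligand of vessel and cortex development, rose in 1 tumor group each; both were singled out after their values were seen. Wnt2 had a lowest value of 7.11, a median of 9.31 and a highest of 10.16 in GFAP hippocampus tumors, against 7.65, 7.68, 7.85 and 7.58 in normal hippocampus. GFAP hippocampus tumor 5 was the lowest, below all 4 normal arrays. The difference was 1.12 ± 0.40 (adjusted p = 0.0267) and the call was lost when GFAP hippocampus tumor 1, 3 or 7 or normal hippocampus 1, 2 or 4 was left out (adjusted p from 0.0541 to 0.0632). SYN1 cortex tumors read 8.41, 7.86, 8.56 and 8.63, against 7.48, 7.39, 7.66 and 7.30 in normal cortex, without overlap, at a difference of 0.91 ± 0.45 (adjusted p = 0.12). Wnt7b read 10.60, 9.84 and 7.21 in SVZ tumors, against 7.85 to 8.03 in normal hippocampus and 7.75 to 8.09 in normal cortex. SVZ tumors 1 and 2 were high and SVZ tumor 3 lay below every normal array, and the difference of 1.27 ± 0.43 (adjusted p = 0.021) lost its call without SVZ tumor 1 or 2 (adjusted p from 0.164 to 0.364).

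Wnt4, Wnt7a, Wnt9a and Wnt10a were the ligands with the clearest falls. Wnt4, a ligand of both branches that is best known from kidney and gonad, read 7.62, 7.69 and 7.75 in SVZ tumors and 7.61, 7.76, 8.02 and 8.14 in NES hippocampus tumors. It had a lowest value of 7.02, a median of 7.56 and a highest of 7.83 in GFAP hippocampus tumors, against 8.18, 8.07, 7.96 and 8.15 in normal hippocampus. In cortex it read 7.56, 7.69, 7.65 and 7.55 in SYN1 tumors and 8.05, 7.91, 7.52 and 7.47 in GFAP tumors, against 8.43, 8.26, 8.37 and 8.60 in normal cortex. All tumor arrays lay below the normal arrays of their region apart from NES tumors, which overlapped them. The differences were -0.56 ± 0.14 (adjusted p = 0.00248), -0.58 ± 0.13 (adjusted p = 0.000986), -0.80 ± 0.15 (adjusted p = 0.000107) and -0.68 ± 0.15 (adjusted p = 0.00158) in SVZ, GFAP hippocampus, SYN1 and GFAP cortex tumors, and -0.21 ± 0.15 (adjusted p = 0.451) in NES tumors. Wnt4 is the one member with a second probe set. Its means were 7.09, 6.76, 7.03 and 7.01 in the 4 groups called and 7.01 in NES tumors. Normal hippocampus had 7.48 and normal cortex 7.84, so every tumor group, NES included, was lower, the same direction as the first. Differences on the second probe set alone were not tested.

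Wnt7a, a ligand made in the nervous system that acts on vessels and synapses, read 6.37, 6.68 and 6.72 in SVZ tumors and 7.25, 7.26, 7.45 and 7.40 in NES tumors. GFAP hippocampus tumors had a lowest value of 6.54, a median of 7.09 and a highest of 7.27, against 7.75, 7.65, 7.57 and 7.51 in normal hippocampus. In SYN1 tumors it was 6.85, 6.52, 6.36 and 6.71 and in GFAP cortex tumors 6.68, 7.32, 7.59 and 7.30, against 7.47, 7.36, 7.43 and 7.22 in normal cortex. The SVZ, both hippocampus and the SYN1 groups lay wholly below their normal arrays, while GFAP cortex tumors overlapped them. Falls were called in SVZ tumors at -0.91 ± 0.16 (adjusted p = 5.63e-05), in GFAP hippocampus tumors at -0.61 ± 0.15 (adjusted p = 0.00162) and in SYN1 tumors at -0.76 ± 0.16 (adjusted p = 0.00049). The differences in NES tumors, -0.28 ± 0.16 (adjusted p = 0.331), and GFAP cortex tumors, -0.15 ± 0.16 (adjusted p = 0.565), did not pass.

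Wnt9a, a canonical ligand known from joint formation, fell in both cortex groups. It read 7.53, 7.46, 7.78 and 7.50 in SYN1 tumors and 7.70, 7.51, 7.49 and 7.60 in GFAP cortex tumors, against 8.51, 8.22, 8.03 and 8.42 in normal cortex, with no overlap and differences of -0.73 ± 0.13 (adjusted p = 8.5e-05) and -0.72 ± 0.13 (adjusted p = 0.000365). In GFAP hippocampus tumors it had a lowest value of 7.08, a median of 7.30 and a highest of 7.70, against 7.55, 7.85, 7.50 and 7.68 in normal hippocampus. That smaller difference, -0.31 ± 0.12 (adjusted p = 0.0356), was lost without GFAP hippocampus tumor 1, 6 or 7 or normal hippocampus 2 or 4 (adjusted p from 0.0544 to 0.146) and without the 4 arrays that stand apart. SVZ and NES tumors ranged 7.59 to 8.05 and 7.25 to 7.65, at differences of -0.13 ± 0.13 (adjusted p = 0.472) and -0.19 ± 0.13 (adjusted p = 0.439).

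Wnt10a, a ligand of skin and tooth development, is the chromosome neighbor of Wnt6. It read 7.63, 7.57, 7.69 and 7.48 in SYN1 tumors and 7.93, 7.49, 7.37 and 7.39 in GFAP cortex tumors, against 8.28, 8.37, 8.41 and 8.28 in normal cortex. GFAP hippocampus tumors had a lowest value of 6.89, a median of 7.26 and a highest of 7.56, against 7.83, 7.91, 7.64 and 7.73 in normal hippocampus. None of these 3 groups overlapped its normal arrays, and the differences were -0.74 ± 0.18 (adjusted p = 0.00185), -0.79 ± 0.18 (adjusted p = 0.00243) and -0.52 ± 0.16 (adjusted p = 0.0118). SVZ and NES tumors had differences of -0.13 and -0.28, with adjusted p = 0.647 and 0.395. Wnt6 fell with it in GFAP hippocampus tumors, at 6.02 to 6.49 against 6.58 to 6.94 in normal hippocampus (-0.50, adjusted p = 0.000709). In SYN1 tumors the fall of Wnt6, -0.31 ± 0.12 (adjusted p = 0.0463), was lost without SYN1 tumor 1, 2 or 4 or normal cortex 1 or 3 (adjusted p from 0.0649 to 0.146).

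With all arrays, 5 further ligands of low signal passed in the comparison of GFAP hippocampus tumors with normal hippocampus and in no other tumor group, which does not show that the groups differ. Wnt3a, the standard canonical ligand, differed by -0.41 ± 0.15 (adjusted p = 0.0249), Wnt10b by -0.41 ± 0.12 (adjusted p = 0.00763), Wnt8b by -0.37 ± 0.11 (adjusted p = 0.0107), Wnt9b by -0.31 ± 0.09 (adjusted p = 0.00862) and Wnt16 by -0.33 ± 0.12 (adjusted p = 0.0359). Wnt3a was lost without GFAP hippocampus tumor 1 or 2 or normal hippocampus 1 or 2 (adjusted p from 0.0514 to 0.117), and Wnt8b without normal hippocampus 2 (adjusted p = 0.0526). Wnt16 was lost without GFAP hippocampus tumor 1, 6 or 7 or normal hippocampus 1 or 2 (adjusted p from 0.0572 to 0.121). GFAP hippocampus tumors 5 to 7 had the lowest array medians of the series, 7.03 to 7.07, and with centring on the array median Wnt3a, Wnt9b and Wnt16 were no longer called. Wnt3a was not called after quantile normalization either. With GFAP hippocampus tumors 1 to 4 only, Wnt10b (-0.28, adjusted p = 0.0737) and Wnt16 were not called. All 5 were called lower in GFAP hippocampus tumors without the 4 arrays that stand apart, and in NES tumors Wnt3a at -0.38 ± 0.13 (adjusted p = 0.0468), Wnt10b at -0.33 ± 0.10 (adjusted p = 0.0211) and Wnt16 at -0.25 ± 0.08 (adjusted p = 0.0343) were called lower too. NES minus GFAP hippocampus differences with all arrays were 0.04 ± 0.15 (adjusted p = 0.896) for Wnt3a, 0.08 ± 0.12 (adjusted p = 0.705) for Wnt10b, 0.07 ± 0.11 (adjusted p = 0.723) for Wnt8b, 0.12 ± 0.09 (adjusted p = 0.431) for Wnt9b and 0.08 ± 0.12 (adjusted p = 0.706) for Wnt16, none of them called. Wnt1, Wnt2b, Wnt3, Wnt5b, Wnt8a and Wnt11 were called in no comparison with all arrays.

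**Figure D2:**
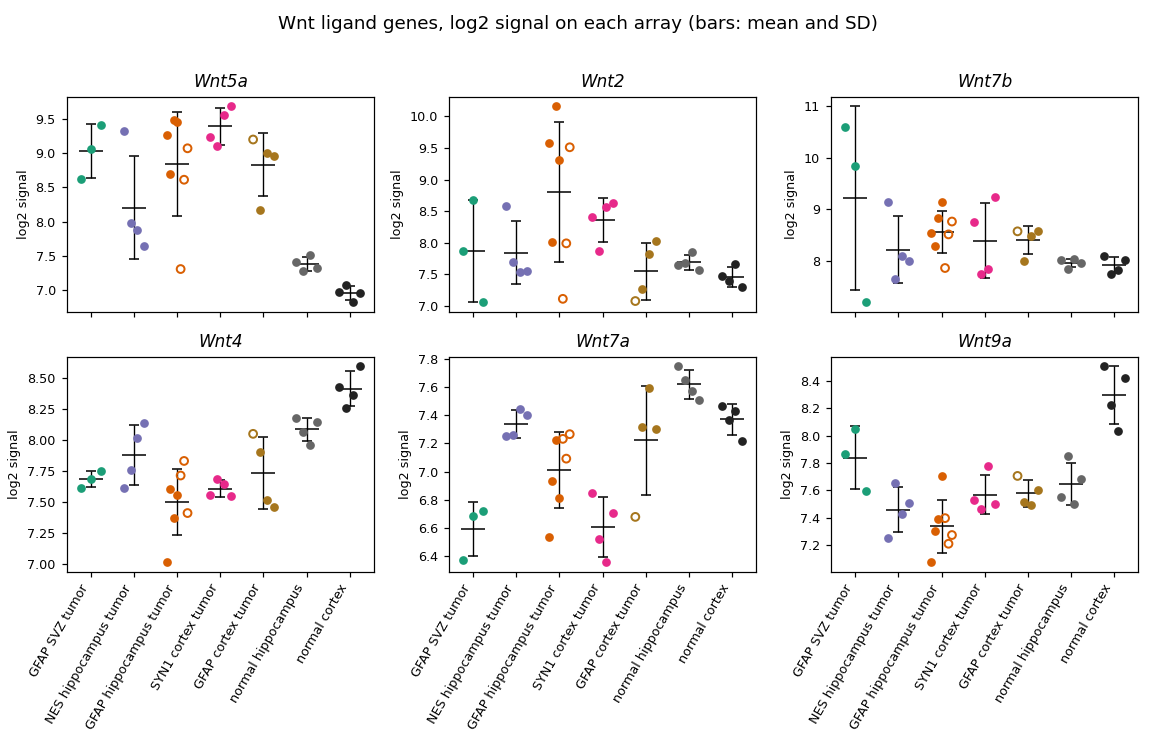
Log2 signal of 6 Wnt ligand genes on every array, by group, with the mean and SD as bars. Open circles are the 4 arrays that stand apart. Wnt5a is higher in tumors, with GFAP hippocampus tumor 5 at 7.31. Wnt4 lies below the normal arrays of its region in all tumor groups but NES, which overlaps them. Wnt2 and Wnt7b spread widely within tumor groups.

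Among the receptors, Fzd1, Fzd6, Fzd7 and Fzd8 rose and Fzd3 and Fzd9 fell. Fzd1, a receptor of canonical ligands, was the member called in all 5 groups. It read 8.84, 8.55 and 8.76 in SVZ tumors and 8.68, 8.58, 8.80 and 8.64 in NES tumors. GFAP hippocampus tumors had a lowest value of 8.21, a median of 8.73 and a highest of 9.46, against 7.92, 8.00, 7.94 and 7.92 in normal hippocampus. SYN1 tumors read 9.22, 8.99, 8.57 and 9.03 and GFAP cortex tumors 8.86, 8.39, 8.80 and 9.30, against 8.24, 7.98, 8.13 and 8.07 in normal cortex. No tumor array reached down to the normal arrays of its region. The differences were similar in size: 0.69 ± 0.18 (adjusted p = 0.00364) in SVZ, 0.73 ± 0.19 (adjusted p = 0.0161) in NES, 0.91 ± 0.17 (adjusted p = 0.00015) in GFAP hippocampus, 0.84 ± 0.19 (adjusted p = 0.000885) in SYN1 and 0.73 ± 0.19 (adjusted p = 0.00581) in GFAP cortex tumors. The call in NES tumors was lost without NES tumor 1 (adjusted p = 0.0536) and after quantile normalization.

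Fzd7, a receptor of stem and progenitor cells, read 9.42, 9.57 and 9.00 in SVZ tumors and 9.38, 8.21, 8.29 and 7.93 in NES tumors. It had a lowest value of 7.94, a median of 9.13 and a highest of 9.61 in GFAP hippocampus tumors, against 7.93, 7.84, 7.83 and 7.63 in normal hippocampus. In SYN1 tumors it was 9.31, 9.23, 9.97 and 9.31 and in GFAP cortex tumors 8.33, 7.92, 8.90 and 8.79, against 7.79, 7.44, 7.46 and 7.40 in normal cortex. All tumor groups lay above their normal arrays, the lowest hippocampus tumors only narrowly. Rises were called in SVZ tumors at 1.66 ± 0.29 (adjusted p = 5.72e-05), GFAP hippocampus tumors at 1.15 ± 0.27 (adjusted p = 0.00121), SYN1 tumors at 1.93 ± 0.30 (adjusted p = 1.51e-05) and GFAP cortex tumors at 0.96 ± 0.30 (adjusted p = 0.0174). The call in GFAP cortex tumors was lost without GFAP cortex tumor 3 or 4 (adjusted p from 0.0561 to 0.0639). NES tumors, at 0.65 ± 0.30 (adjusted p = 0.205), did not pass.

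Fzd8, a receptor of canonical ligands, read 8.56, 8.62 and 8.76 in SVZ tumors and 8.57, 8.63, 9.29 and 8.60 in SYN1 tumors, against 7.77 to 8.01 in normal hippocampus and 7.53 to 7.81 in normal cortex. Those groups did not overlap normal tissue and differed by 0.87 ± 0.24 (adjusted p = 0.00527) and 1.11 ± 0.25 (adjusted p = 0.000914). In GFAP hippocampus tumors it had a lowest value of 7.74, a median of 8.47 and a highest of 9.52, overlapping normal hippocampus, and in GFAP cortex tumors 8.02, 8.01, 8.43 and 8.89. The rise of 0.60 ± 0.23 (adjusted p = 0.0359) in GFAP hippocampus tumors was lost without tumor 3, 4 or 7 or any 1 of the 4 normal hippocampus arrays (adjusted p from 0.0517 to 0.09). The rise of 0.68 ± 0.25 (adjusted p = 0.0466) in GFAP cortex tumors was lost without tumor 3 or 4 or any 1 of the 4 normal cortex arrays (adjusted p from 0.0593 to 0.188). NES tumors ranged 7.95 to 8.52, a difference of 0.26 ± 0.25 (adjusted p = 0.594).

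Fzd6, a receptor of the planar polarity branch, read 9.31, 8.57 and 8.31 in SVZ tumors and 8.93, 8.34, 8.50 and 8.39 in SYN1 tumors, against 7.78, 7.83, 7.57 and 7.73 in normal hippocampus and 7.78, 7.63, 7.82 and 7.76 in normal cortex. It had a lowest value of 8.04, a median of 8.57 and a highest of 9.20 in GFAP hippocampus tumors. These 3 groups lay above all normal arrays of their comparison, at 1.00 ± 0.20 (adjusted p = 0.000302), 0.79 ± 0.21 (adjusted p = 0.00358) and 0.81 ± 0.19 (adjusted p = 0.00122). NES tumors, 8.51, 8.05, 7.99 and 7.97, and GFAP cortex tumors, 8.01, 7.79, 8.05 and 8.02, differed from normal by 0.40 ± 0.21 (adjusted p = 0.268) and 0.22 ± 0.21 (adjusted p = 0.496) and were not called. Fzd5 was called in SVZ tumors, 7.57 to 7.90 against 6.99 to 7.41 in normal hippocampus and 7.22 to 7.34 in normal cortex (0.48, adjusted p = 0.0451). It lost that call without any 1 of the SVZ or normal cortex arrays or of normal hippocampus 1, 3 or 4 (adjusted p from 0.0523 to 0.189).

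Fzd3, a receptor of axon guidance and planar polarity in the nervous system, had the largest fall of any member. It read 8.19, 8.02 and 8.50 in SVZ tumors and 8.64, 9.75, 10.20 and 9.62 in NES tumors, and GFAP hippocampus tumors had a lowest value of 8.28, a median of 9.12 and a highest of 10.10, against 9.88, 9.72, 9.68 and 9.74 in normal hippocampus. SYN1 tumors read 8.54, 8.26, 7.31 and 8.15 and GFAP cortex tumors 7.28, 9.94, 8.87 and 9.25, against 10.40, 10.16, 10.33 and 10.20 in normal cortex. The SVZ, SYN1 and GFAP cortex groups lay below their normal arrays and the hippocampus groups overlapped theirs. The differences were -1.78 ± 0.39 (adjusted p = 0.00057) in SVZ tumors, -2.21 ± 0.40 (adjusted p = 8.66e-05) in SYN1 tumors and -1.44 ± 0.40 (adjusted p = 0.00858) in GFAP cortex tumors. GFAP cortex tumor 1, at 7.28, was the lowest of its group, and without it the last of these was -0.92 and not called (adjusted p = 0.0594). It was not called either with only the arrays compared (adjusted p = 0.055), while without all 4 arrays that stand apart it was called at -0.92 ± 0.32 (adjusted p = 0.0314). In NES and GFAP hippocampus tumors the differences were -0.20 ± 0.40 (adjusted p = 0.82) and -0.61 ± 0.36 (adjusted p = 0.174).

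Fzd9, a receptor found in the developing hippocampus, had a lowest value of 6.42, a median of 6.99 and a highest of 7.25 in GFAP hippocampus tumors and 6.99, 7.18, 7.91 and 7.59 in NES tumors, against 7.64, 7.69, 7.57 and 7.30 in normal hippocampus. GFAP hippocampus tumors lay below normal hippocampus and NES tumors on both sides of it. The fall was -0.62 ± 0.15 (adjusted p = 0.00137) in GFAP hippocampus tumors and the difference -0.13 ± 0.16 (adjusted p = 0.685) in NES tumors. SYN1 tumors read 7.28, 7.09, 7.10 and 6.83, against 7.54, 7.62, 7.38 and 7.45 in normal cortex, a fall of -0.42 ± 0.16 (adjusted p = 0.0439) that was lost without SYN1 tumor 2, 3 or 4 or normal cortex 1, 2 or 4 (adjusted p from 0.0655 to 0.15). Fzd10 fell in GFAP hippocampus tumors, with a difference of -0.32 ± 0.10 (adjusted p = 0.0161), and lost that call under centring and quantile normalization. Fzd2 and Fzd4 were called in no comparison.

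**Figure D3:**
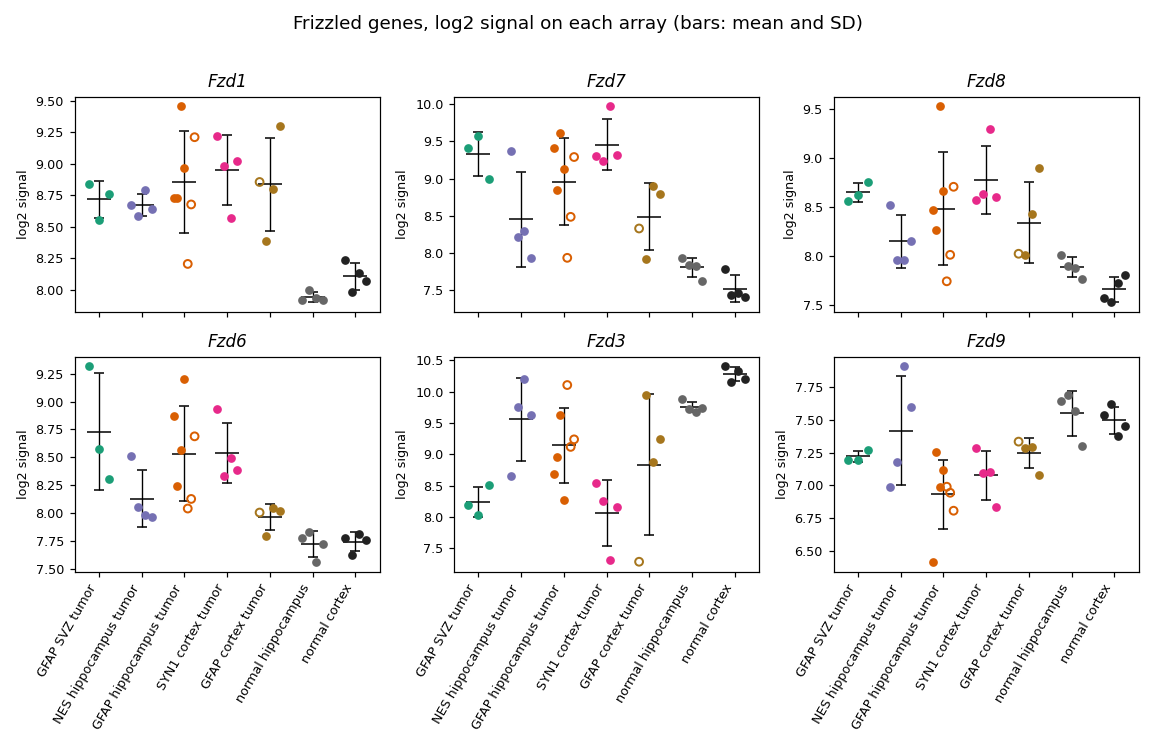
Log2 signal of 6 Frizzled genes on every array, by group, with the mean and SD as bars and open circles for the 4 arrays that stand apart. Fzd1 and Fzd7 lie above normal tissue on every tumor array of each comparison, and Fzd3 is low in SVZ and SYN1 tumors.

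Among the antagonists Dkk3 fell and Dkk2 rose. Dkk3 is a divergent member of the Dkk family. It read 10.00, 9.72 and 9.16 in SVZ tumors and 9.41, 10.26, 9.81 and 9.81 in NES tumors, and GFAP hippocampus tumors had a lowest value of 8.69, a median of 9.80 and a highest of 10.36, against 10.86, 10.56, 10.76 and 10.69 in normal hippocampus. SYN1 tumors read 9.77, 8.85, 8.44 and 9.43 and GFAP cortex tumors 8.90, 9.83, 10.16 and 10.10, against 10.97, 11.04, 10.85 and 10.80 in normal cortex. Every tumor array lay below every normal array of its comparison. The falls were -1.19 ± 0.30 (adjusted p = 0.0021), -1.06 ± 0.27 (adjusted p = 0.00318), -1.80 ± 0.31 (adjusted p = 4.86e-05) and -1.17 ± 0.31 (adjusted p = 0.0061) in SVZ, GFAP hippocampus, SYN1 and GFAP cortex tumors. In NES tumors the difference was -0.89 ± 0.31 (adjusted p = 0.0735), and -0.89 ± 0.27 (adjusted p = 0.0213) without the 4 arrays that stand apart.

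Dkk2, an antagonist that can also activate the pathway in some settings, spread widely among tumors. GFAP hippocampus tumors had a lowest value of 6.45, a median of 9.04 and a highest of 10.88, with tumor 5 the lowest and below every normal array, against 6.68, 7.19, 6.96 and 6.82 in normal hippocampus. SYN1 tumors read 11.12, 7.49, 7.74 and 9.11 and GFAP cortex tumors 7.71, 9.65, 8.75 and 9.55, against 6.87, 7.24, 7.0 and 7.18 in normal cortex, without overlap. The rise was 2.03 ± 0.63 (adjusted p = 0.0113) in GFAP hippocampus tumors and 1.79 ± 0.71 (adjusted p = 0.0459) in SYN1 tumors, while 1.85 ± 0.71 (adjusted p = 0.0525) in GFAP cortex tumors narrowly missed. The SYN1 call was lost without SYN1 tumor 1 or 4 or any 1 of the 4 normal cortex arrays (adjusted p from 0.0682 to 0.258). SVZ tumors read 7.99, 8.42 and 6.64 and NES tumors 9.35, 7.46, 7.11 and 7.75, at differences of 0.69 ± 0.68 (adjusted p = 0.487) and 1.01 ± 0.71 (adjusted p = 0.436). Dkk1, the founding Lrp antagonist, and Dkk4 were called in no comparison.

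Sfrp1, an Sfrp gene of forebrain development, differed by region in normal tissue and in GFAP tumors. It read 7.71, 8.01, 7.68 and 7.87 in normal hippocampus, against 9.06, 8.90, 8.77 and 9.03 in normal cortex. It fell in SYN1 tumors, 7.62, 7.56, 7.88 and 7.82, to levels below every normal cortex array, at -1.22 ± 0.27 (adjusted p = 0.000576). GFAP cortex tumors, 9.34, 8.80, 9.14 and 8.44, differed from normal cortex by -0.01 ± 0.27 (adjusted p = 0.984). GFAP hippocampus tumors had a lowest value of 6.74, a median of 7.67 and a highest of 8.20 and NES tumors read 8.37, 8.24, 8.71 and 7.91, differing from normal hippocampus by -0.28 ± 0.24 (adjusted p = 0.36) and 0.49 ± 0.27 (adjusted p = 0.288). SVZ tumors were at 8.16, 8.60 and 7.45.

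Sfrp5 rose in NES hippocampus tumors, which read 7.08, 7.21, 7.85 and 7.45, against 6.41, 6.55, 6.32 and 6.43 in normal hippocampus. The groups did not overlap and the difference was 0.97 ± 0.25 (adjusted p = 0.0149), lost without NES tumor 3 (adjusted p = 0.0519). In the other 4 groups the differences of Sfrp5 from normal ran from 0.14 to 0.38 and none passed. Sfrp2 and Sfrp4 were called in no comparison with all arrays. Sfrp2 read 11.58, 7.51, 7.26 and 7.34 in GFAP cortex tumors, against 7.55, 7.23, 7.23 and 7.22 in normal cortex, so that GFAP cortex tumor 1 stood alone. In all, 12 of the 37 members were called in none of the 5 tumor comparisons, and in 10 of these, all but Sfrp2 and Sfrp4, no difference exceeded 0.37 in size.

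**Figure D4:**
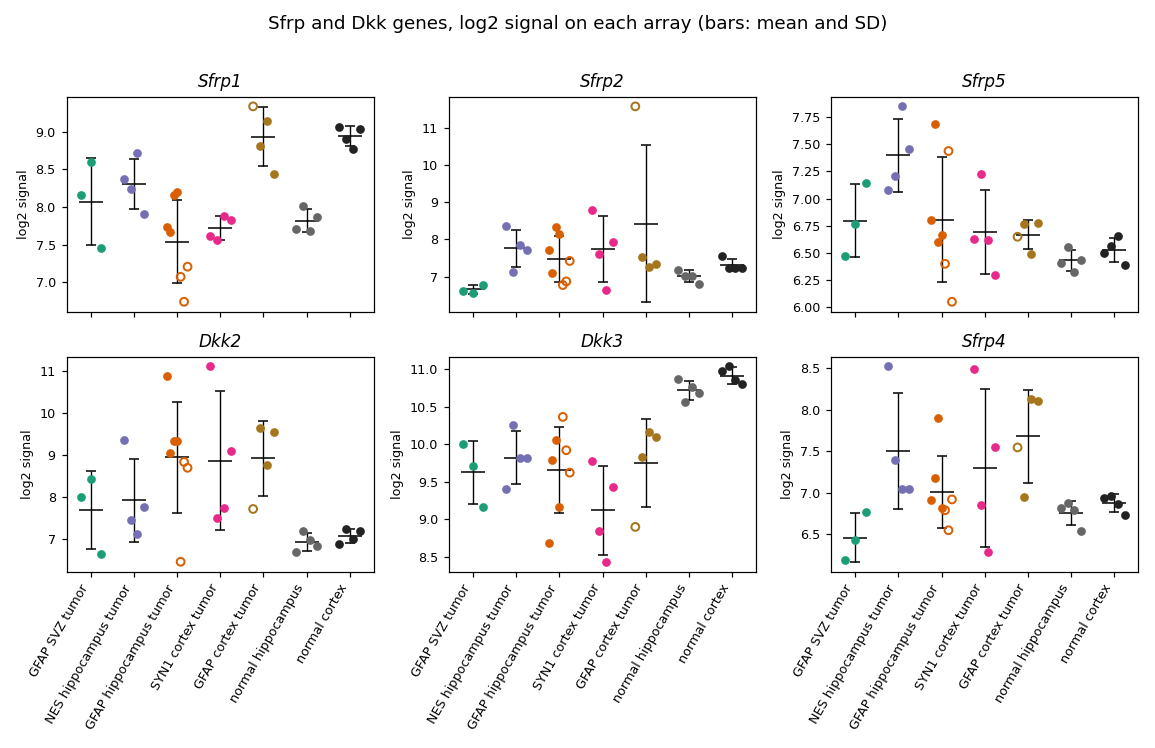
Log2 signal of 4 Sfrp genes and of Dkk2 and Dkk3 on every array, by group, with the mean and SD as bars and open circles for the 4 arrays that stand apart. Dkk3 lies below normal tissue on every tumor array, Sfrp1 is lower in normal hippocampus than in normal cortex, and Dkk2 and Sfrp2 spread widely within tumor groups.

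Markers of other cells moved in the same comparisons. In bulk tissue, fewer cells of a type and less RNA per cell cannot be told apart. Of 8 neuron markers, 6 were called lower and none higher in SVZ tumors, none either way in NES tumors, 5 lower in GFAP hippocampus tumors, 7 lower in SYN1 tumors and 5 lower in GFAP cortex tumors. Their mean, in log2 units relative to normal brain, was -2.54 to -1.59 in SVZ tumors, -1.35 to -0.12 in NES tumors, -2.54 to -0.93 in GFAP hippocampus tumors, -3.28 to -2.16 in SYN1 tumors and -3.65 to -0.53 in GFAP cortex tumors, against -0.26 to 0.01 in normal hippocampus and 0.02 to 0.20 in normal cortex. The neuron markers called lower numbered 6, 0, 6, 8 and 4 in SVZ, NES, GFAP hippocampus, SYN1 and GFAP cortex tumors without the 4 arrays that stand apart. Dkk3 and Wnt4 were called lower in the same 4 groups as neuron markers, and oligodendrocyte markers were called lower in those groups too. Of the other falls, Fzd3 was not called in GFAP hippocampus tumors, Wnt7a not in GFAP cortex tumors, and Wnt9a and Wnt10a not in SVZ tumors. A missing call does not show that a gene did not fall. The part of neuron and oligodendrocyte markers in these falls was not tested. Of 5 measured oligodendrocyte markers, 5, 0, 2, 5 and 5 were called lower in SVZ, NES, GFAP hippocampus, SYN1 and GFAP cortex tumors, and 5, 0, 4, 5 and 2 without the 4 arrays that stand apart. Their mean was -2.63 to -1.32, -1.05 to 0.07, -2.03 to 0.07, -2.94 to -1.45 and -3.69 to -0.51, against -0.12 to 0.16 in normal hippocampus and -0.11 to 0.15 in normal cortex. Of 7 astrocyte markers 3, 0, 0, 3 and 1 were called lower and 1 was called higher, in GFAP hippocampus tumors. Without the 4 arrays that stand apart 3, 0, 3, 3 and 0 were called lower and 0, 2, 0, 1 and 1 higher. The direction of the calls thus changed in GFAP hippocampus and GFAP cortex tumors. Of 8 microglia and macrophage markers, 4, 5, 5, 4 and 4 were called higher, so that NES tumors rose in these while no neuron marker passed. Their mean was 0.97 to 1.52, 0.94 to 1.99, 0.92 to 2.05, 0.34 to 1.67 and 0.50 to 1.92, against -0.17 to 0.19 in normal hippocampus and -0.16 to 0.07 in normal cortex. Of 9 mural cell and fibroblast markers, 1, 1, 4, 3 and 7 were called higher in SVZ, NES, GFAP hippocampus, SYN1 and GFAP cortex tumors, and of 7 endothelial markers 5, 1, 5, 5 and 2. The mean of the mural cell and fibroblast markers was 0.22 to 1.22, 0.11 to 1.35, 0.85 to 1.45, 0.29 to 1.57 and 0.46 to 2.82 in those groups, against -0.03 to 0.26 in normal hippocampus and -0.26 to -0.02 in normal cortex. The mural cell and fibroblast counts without the 4 arrays that stand apart were 1, 1, 6, 7 and 7 and the endothelial counts 5, 3, 6, 6 and 4. The part of microglia, mural cell, fibroblast and endothelial markers in the rises of Wnt5a, Dkk2 and the Frizzled genes was not tested. Since log2 signal has no true zero, no marker can be called absent.

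Tumors of different promoters or sites were also compared directly. In bulk tissue a change in a gene and a difference in cell content cannot be told apart. Of 8 neuron markers, none was called in SYN1 against GFAP cortex tumors and 1 was higher in NES against GFAP hippocampus tumors. Without the 4 arrays that stand apart, 4 were called lower in the first comparison and 6 higher in the second. Their part in the differences below was not tested. In SYN1 against GFAP cortex tumors none of the 37 members was called by limma, 4 had an unadjusted p under 0.05, and 0.176% of all genes were called. Without the 4 arrays that stand apart, 5 were called, where 13.3% of all genes were called: Fzd7 at 0.92 ± 0.28 (adjusted p = 0.0322), Dkk3 at -0.91 ± 0.29 (adjusted p = 0.041), Fzd3 at -1.29 ± 0.32 (adjusted p = 0.0148), Sfrp1 at -1.07 ± 0.22 (adjusted p = 0.00804) and Wnt7a at -0.80 ± 0.14 (adjusted p = 0.00707). With all arrays those differences were 0.97 ± 0.30 (adjusted p = 0.165), -0.63 ± 0.31 (adjusted p = 0.347), -0.77 ± 0.40 (adjusted p = 0.371), -1.21 ± 0.27 (adjusted p = 0.0538) and -0.62 ± 0.16 (adjusted p = 0.12), and none was called. Leaving out GFAP cortex tumor 1 alone gave 3 calls, Fzd3, Wnt7a and Sfrp1. Sfrp1 was also called after centring (adjusted p = 0.0334), after quantile normalization (adjusted p = 0.0438), without the 30% of genes with the lowest mean (adjusted p = 0.047) and without GFAP cortex tumor 4 (adjusted p = 0.0398). It read 7.62, 7.56, 7.88 and 7.82 in SYN1 tumors, against 9.34, 8.80, 9.14 and 8.44 in GFAP cortex tumors, without overlap.

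In NES against GFAP hippocampus tumors 2 members were called, both higher, where 8.21% of all genes were called and 6.12% were called higher. They were Fzd9 at 0.49 ± 0.15 (adjusted p = 0.041) and Sfrp1 at 0.77 ± 0.24 (adjusted p = 0.0443), and for both the groups overlapped. Fzd9 lost its call without GFAP hippocampus tumor 1, 6 or 7 or NES tumor 2, 3 or 4 (adjusted p from 0.0663 to 0.256). Sfrp1 lost it without any 1 of the 4 NES tumors or of GFAP hippocampus tumors 1, 5, 6 or 7 (adjusted p from 0.051 to 0.218). Neither was called after centring, which moved the median of all genes from 0.06 to -0.06. Without the 4 arrays that stand apart, 8 members were called, where 21.2% of all genes were called, and Fzd9 and Sfrp1 were not among the 8. Wnt4 (0.49 ± 0.13 (adjusted p = 0.0141)), Wnt7a (0.46 ± 0.13 (adjusted p = 0.0173)) and Fzd10 (0.28 ± 0.09 (adjusted p = 0.0262)) were higher in NES tumors, and Wnt2 (-1.42 ± 0.35 (adjusted p = 0.0114)), Wnt5a (-1.02 ± 0.27 (adjusted p = 0.0146)), Fzd6 (-0.59 ± 0.19 (adjusted p = 0.0352)), Fzd7 (-0.80 ± 0.26 (adjusted p = 0.0309)) and Dkk2 (-1.73 ± 0.59 (adjusted p = 0.0416)) were lower. Leaving out single arrays moved the count from 0 to 4 members: it was 4 without NES tumor 1 (Wnt4, Wnt5a, Fzd7 and Fzd9) or GFAP hippocampus tumor 5 (Wnt2, Wnt4, Wnt5a and Fzd9), and 0 without GFAP hippocampus tumor 1, 6 or 7 or NES tumor 2, 3 or 4. With all arrays, Wnt5a and Dkk3, not called in NES tumors against normal, differed between NES and GFAP hippocampus tumors by -0.64 ± 0.31 (adjusted p = 0.187) and 0.16 ± 0.27 (adjusted p = 0.736).

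Between sites, GFAP hippocampus against GFAP cortex tumors gave 1 member, Sfrp1, which was lower, where 2.68% of all genes were called and 0.441% were called lower. Sfrp1 had a lowest value of 6.74, a median of 7.67 and a highest of 8.20 in GFAP hippocampus tumors, against 9.34, 8.80, 9.14 and 8.44 in GFAP cortex tumors, with no overlap and a difference of -1.39 ± 0.24 (adjusted p = 0.00549). The difference was -0.86 ± 0.22 (adjusted p = 0.0224) without the 4 arrays that stand apart and -0.99 (adjusted p = 0.00916) with GFAP hippocampus tumors 1 to 4 only, and it was not called with only the arrays compared (adjusted p = 0.422). Residuals of tumors with equal numbers 1 to 4 in these groups had correlations of 0.277 to 0.306. Unequal numbers were not compared, so pairing by number is not shown. With the replicate number as a block 5 members were called: Fzd6, Fzd7 and Wnt2 higher and Sfrp1 and Wnt7a lower in hippocampus. Centring moved the median of all genes from 0.00 to 0.12 and gave 3 calls, Sfrp1, Fzd6 and Wnt2, the same 3 as leaving out GFAP hippocampus tumor 5. Without the 4 arrays that stand apart 4 were called, Fzd6 and Wnt2 higher and Sfrp1 and Wnt7a lower, where 10.5% of all genes were called. SVZ against GFAP cortex tumors gave no member by limma, where 0.00502% of all genes were called, and 7 members had an unadjusted p under 0.05; without the 4 arrays that stand apart 4 were called, Fzd6 higher and Fzd3, Sfrp1 and Wnt7a lower, where 11.8% of all genes were called. Wnt7a alone was called without GFAP cortex tumor 1 (adjusted p = 0.0229), and Wnt7b alone without SVZ tumor 3 (adjusted p = 0.0357). SVZ against GFAP hippocampus tumors gave none either with or without those arrays, where 0.316% of all genes were called with them and 0.672% without them, and 8 members had an unadjusted p under 0.05. Wnt9a and Wnt10a were called higher there without GFAP hippocampus tumor 4, and Wnt9a and Wnt7b without SVZ tumor 3.

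Normal hippocampus against normal cortex showed the same gene. Sfrp1 at -1.12 ± 0.27 (adjusted p = 0.0245) and Wnt9a at -0.65 ± 0.13 (adjusted p = 0.00657) were called, both lower, where 1.29% of all genes were called and 0.727% were called lower. Members that did not overlap between the regions numbered 3 higher and 8 lower in hippocampus, where 18.3% of all genes did not overlap. Wnt9a kept its call whichever array was left out, and Sfrp1 lost it without normal hippocampus 1, 3 or 4 or normal cortex 1, 2 or 4 (adjusted p from 0.0608 to 0.0946) and after quantile normalization. With only the arrays compared, whose fit leaves out the tumors, limma called Sfrp1 at -1.12 ± 0.09 (adjusted p = 1.18e-06). In that fit Wnt9a, Wnt10a (-0.56), Fzd3 (-0.52), Wnt2b (-0.35) and Wnt4 (-0.33) were also called lower in hippocampus and Wnt5a (0.42) higher. The GFAP tumor change in hippocampus minus that in cortex was called for no member by limma, where 0.838% of all genes were called, and 4 had an unadjusted p under 0.05. Centring moved the median of all genes for this difference from 0.03 to 0.15. For Sfrp1 it was -0.27 ± 0.36 (adjusted p = 0.896), for Wnt9a 0.41 ± 0.18 (adjusted p = 0.375) and for Fzd3 0.83 ± 0.54 (adjusted p = 0.654). Without the 4 arrays that stand apart, where 2.69% of all genes were called, 1 member was called, Wnt7a, at -0.78 ± 0.19 (adjusted p = 0.0291), against -0.46 ± 0.22 (adjusted p = 0.456) with all arrays.

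The other genes of the pathway were read from 4 lists put together with earlier results of these data known. Of 28 receptors, co-receptors and extracellular regulators, 8 were called higher and 6 lower in SVZ tumors, 1 and 3 in NES tumors, 6 and 11 in GFAP hippocampus tumors, 9 and 6 in SYN1 tumors and 6 and 4 in GFAP cortex tumors. That is 50%, 14.3%, 60.7%, 53.6% and 35.7% of the list, where 37.6%, 8.56%, 41.4%, 38.7% and 27.8% of all genes were called. The counts higher and lower were, without the 4 arrays that stand apart, 9 and 7, 4 and 6, 8 and 10, 11 and 6 and 8 and 4. In that setting 47.6%, 19.4%, 52.4%, 48.7% and 33.3% of all genes were called. Rspo2, which raises Wnt receptor levels, fell in all 5 groups, with log2 differences of -1.92, -1.49, -1.80, -2.10 and -1.62 in the same order. It read 6.10, 6.02, 6.09 and 6.14 in SYN1 tumors, against 8.39, 7.88, 8.21 and 8.28 in normal cortex. Porcn, the enzyme that attaches the lipid to Wnts, differed by -1.94 ± 0.31 (adjusted p = 2.08e-05), -0.87 ± 0.32 (adjusted p = 0.0928), -1.83 ± 0.28 (adjusted p = 1.74e-05), -1.27 ± 0.32 (adjusted p = 0.00228) and -1.06 ± 0.32 (adjusted p = 0.0135). Rspo1 differed by -0.82 ± 0.17 (adjusted p = 0.000319), 0.11 ± 0.17 (adjusted p = 0.752), -0.29 ± 0.15 (adjusted p = 0.139), -1.50 ± 0.17 (adjusted p = 6.35e-07) and -1.42 ± 0.17 (adjusted p = 6.22e-06).

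Ror1, a receptor of Wnt5a, took opposite directions in the 2 regions. It read 7.59, 7.75, 7.80 and 7.53 in NES hippocampus tumors, and GFAP hippocampus tumors had a lowest value of 7.19, a median of 7.50 and a highest of 7.57, against 8.44, 8.26, 8.39 and 8.30 in normal hippocampus. In SYN1 tumors it was 7.71, 7.61, 7.91 and 7.87 and in GFAP cortex tumors 7.97, 7.51, 7.96 and 7.51, against 7.41, 7.19, 7.03 and 7.18 in normal cortex. It fell in NES and GFAP hippocampus tumors, with differences of -0.68 ± 0.12 (adjusted p = 0.000829) and -0.90 ± 0.11 (adjusted p = 8.78e-07), and rose in SYN1 and GFAP cortex tumors, with 0.57 ± 0.12 (adjusted p = 0.000541) and 0.54 ± 0.12 (adjusted p = 0.00237). The GFAP change in hippocampus minus that in cortex was -1.44 ± 0.17 (adjusted p = 1.1e-05). Normal hippocampus was above normal cortex by 1.14 ± 0.12 (adjusted p = 1.47e-06), and the means of the tumor groups of both regions lay between the means of the normal tissues.

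Of 17 genes of intracellular transduction, 3 were called higher and 6 lower in SVZ tumors, 1 and 0 in NES tumors, 0 and 7 in GFAP hippocampus tumors, 3 and 5 in SYN1 tumors and 0 and 5 in GFAP cortex tumors. The shares called, 52.9%, 5.88%, 41.2%, 47.1% and 29.4%, stand beside the shares of all genes just given, and in GFAP hippocampus tumors the 2 are nearly equal. Leaving out the 4 arrays that stand apart gave 4 and 8, 2 and 2, 7 and 6, 5 and 6 and 0 and 6, with 7 genes called higher in GFAP hippocampus tumors against none with all arrays. In that setting 47.6%, 19.4%, 52.4%, 48.7% and 33.3% of all genes were called. Apc, a scaffold of the beta-catenin destruction complex, differed by -0.92, -0.28, -0.80, -1.06 and -0.85, and Gsk3a, a kinase of that complex, by -0.86, -0.45, -1.31, -1.10 and -1.21. Btrc, which marks beta-catenin for degradation, and Ctnnbip1, which blocks its binding to TCF factors, were lower in the same 4 groups. Each of these 4 genes was called in every group but NES tumors. Gsk3a read 9.92, 9.71 and 9.47 in GFAP hippocampus tumors 5 to 7 and 11.20, 11.46, 11.03 and 11.21 in tumors 1 to 4. Normal hippocampus read 11.98, 11.70, 11.97 and 11.86. GFAP cortex tumor 1 read 10.14, against 11.21, 11.25 and 11.08 in the other tumors of its group. In Btrc too, the arrays that stand apart were the lowest of their groups.

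Of 15 measured target and feedback genes, 3 were called higher and 3 lower in SVZ tumors, 3 and 0 in NES tumors, 3 and 4 in GFAP hippocampus tumors, 4 and 5 in SYN1 tumors and 4 and 3 in GFAP cortex tumors. These are 40%, 20%, 46.7%, 60% and 46.7% of the list, where 37.6%, 8.56%, 41.4%, 38.7% and 27.8% of all genes were called. In SVZ and GFAP hippocampus tumors the share of the list was near that of all genes. Without the 4 arrays that stand apart the counts were 3 and 4, 3 and 0, 4 and 2, 4 and 5 and 5 and 3. In that setting 47.6%, 19.4%, 52.4%, 48.7% and 33.3% of all genes were called. Cd44, Ccnd1 and Myc, which many pathways besides Wnt induce, were called higher in all 5 groups. Cd44, a hyaluronan receptor, rose by 3.34 ± 0.39 (adjusted p = 9.68e-07), 2.11 ± 0.41 (adjusted p = 0.0015), 2.67 ± 0.36 (adjusted p = 3.56e-06), 3.71 ± 0.41 (adjusted p = 3.42e-07) and 2.99 ± 0.41 (adjusted p = 2.23e-05). Myc rose by 2.50, 1.74, 1.93, 2.73 and 2.36, and Ccnd1, cyclin D1, by 2.03, 2.12, 2.33, 2.37 and 1.85. Tnfrsf19 differed by -1.26, -0.36, -0.85, -1.54 and -0.84 and was called in all groups but NES. Axin2, the feedback gene most specific to canonical signaling and named after its values were seen, was called lower in every group but NES, with differences of -0.50 ± 0.17 (adjusted p = 0.0232), -0.13 ± 0.18 (adjusted p = 0.719), -0.52 ± 0.16 (adjusted p = 0.0112), -0.68 ± 0.18 (adjusted p = 0.00371) and -0.58 ± 0.18 (adjusted p = 0.019).

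Of 8 planar polarity genes, 1 was called higher and 5 lower in SVZ tumors, 0 and 2 in NES tumors, 1 and 5 in GFAP hippocampus tumors, 1 and 5 in SYN1 tumors and 1 and 4 in GFAP cortex tumors. These are 75%, 25%, 75%, 75% and 62.5% of the list, where 37.6%, 8.56%, 41.4%, 38.7% and 27.8% of all genes were called. Without the 4 arrays that stand apart the counts were 1 and 6, 0 and 3, 1 and 5, 1 and 5 and 1 and 3. In that setting 47.6%, 19.4%, 52.4%, 48.7% and 33.3% of all genes were called. Prickle2, a cytoplasmic polarity protein, fell in all 5 groups, with log2 differences of -2.38, -1.26, -2.19, -2.35 and -1.66. Prickle1 differed by -1.58, -0.75, -0.92, -1.27 and -1.40, each called. Celsr2 and Celsr3, atypical cadherins of neurons, were called lower in the 4 groups other than NES tumors. The member called higher was Vangl1, a membrane protein of the polarity complex named after its values were seen, with differences of 1.93, 0.76, 1.68 and 0.92 in SVZ, GFAP hippocampus, SYN1 and GFAP cortex tumors, each called, and 0.49 (adjusted p = 0.368) in NES tumors. Neuron markers were called lower in the 4 groups other than NES tumors. In NES tumors none was called, but their mean was -1.35 to -0.12, against -0.26 to 0.01 in normal hippocampus. The part of neuron markers in the falls of the polarity genes was not tested.

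**Figure D5:**
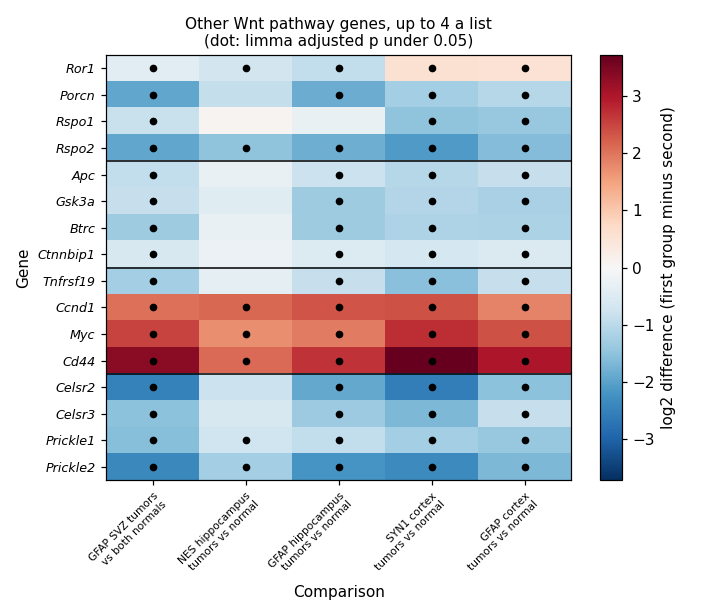
Log2 difference of 16 named genes of the 4 pathway lists (rows) in 5 comparisons of tumors with normal tissue (columns). Red is higher and blue lower in tumors, and a dot marks a limma adjusted p under 0.05. Cd44, Myc and Ccnd1 are red in all columns, Ror1 changes color between cortex and hippocampus tumors, and the 4 polarity genes shown are blue.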

How the data were processed

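Total RNA of dissected mouse tissue was extracted with Trizol and labelled with the Ambion WT kit for Affymetrix Mouse Gene 1.0 ST arrays, per the labels' protocols. Each deposited column holds log2 signal for the probe sets of 1 array, and these log2 values were used as deposited. Affymetrix Power Tools, MAS5 and RMA are named, per the submitters' processing notes; their roles, order and versions, and how arrays were normalized to each other, are not given in the sources used here. Dim genes include background, which compresses differences. No detection call was used.

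The table held 35556 probe sets; 21789 named 1 symbol, 1621 several and 12146 none, and the last 2 kinds were left out. Where a gene had several probe sets, that with the highest mean over the 30 arrays stood for it. Gene symbols and neighbors came from the RefSeq table of GRCm38.p6, where all 37 members matched.

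A linear model of 7 group means was fitted to 19938 genes on 30 arrays with limma 3.58.1 (lmFit and eBayes; R 4.3.3), with 12 contrasts and Benjamini-Hochberg adjustment within each. Precision is limited by group sizes of 3 to 7 arrays. Named were members called in a tumor or normal region comparison, up to 20 in order of adjusted p, and up to 4 called genes of each pathway list. Array values or their ranges were given for these members except Wnt8b, Wnt9b, Wnt10b and Fzd10, and for some of the pathway genes. GFAP hippocampus tumors were mostly given by their lowest, median and highest value. Wnt2, Wnt3a, Wnt7b, Wnt16, Fzd5, Axin2 and Vangl1 were named after their values were seen. The members and lists were chosen with earlier results of these data known.

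Alternatives were centring, quantile normalization, a filter on low signal, averaged probe sets, eBayes with trend and robust settings, only the arrays compared, the replicate number as a block, GFAP hippocampus tumors 1 to 4 only and each array left out; leaving out the 4 arrays that stand apart was chosen after seeing the data. Between GFAP hippocampus and GFAP cortex, residuals of tumors with equal numbers 1 to 4 had correlations of 0.277 to 0.306, every pair over 0.1. No other compared pair of groups met this. Tumors with unequal numbers were not correlated, and GFAP hippocampus residuals were taken from the mean of all 7 tumors. The correlations therefore do not show pairing by number, and the labels give no pairing.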

Additional observations from a re-analysis of the deposited data

Results flagged for a closer look

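Of 222 pairs of a member and a group of 4 to 10 arrays, 14 held 1 array far from the rest by Dixon's ratio, and chance flags about 1 in 20 groups. GFAP cortex tumor 1, which stands apart over all genes, was the outlying array for 5 members: Sfrp2 at 11.58, against 7.26 to 7.51 in the other 3 tumors of its group, Wnt10b at 7.22, Wnt16 at 7.21, Wnt8a at 6.91 and Dkk4 at 6.54. GFAP hippocampus tumor 5, which also stands apart, was low in Wnt5a at 7.31. SYN1 cortex tumor 3 was high in Fzd7 at 9.97 and Fzd8 at 9.29. NES hippocampus tumor 1 was high in Fzd6 at 8.51 and Wnt2 at 8.59, and NES hippocampus tumor 3 stood apart in Fzd2 at 8.94. Among normal tissue, normal cortex 1 was high in Fzd7 at 7.79 and Sfrp2 at 7.55, and normal cortex 2 stood apart in Wnt5b at 7.18.

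With all arrays, the change from normal hippocampus was called different between NES and GFAP tumors, by the test of the difference itself, for Fzd9 and Sfrp1. The NES change was above the GFAP change by 0.49 for Fzd9 and by 0.77 for Sfrp1. Both groups share the normal hippocampus arrays, so this is the difference between the tumor groups given above. Neither call was stable. Of 9 other settings, Fzd9 lost its call under 5 and Sfrp1 under 6, with centring and quantile normalization among them for both. With single arrays left out, Fzd9 kept its call in 5 of 11 fits and Sfrp1 in 3 of 11.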

How the results depend on the processing

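Over the 12 comparisons 62 calls of single members were made, and no alternative reversed one. Of these, 54 were kept with each array centred on its median, 55 after quantile normalization, 53 with only the arrays compared, 53 with the replicate block, 59 without the 4 arrays that stand apart, and all 62 with trend and robust settings and with the mean of probe sets. Counts of members called moved by over 1.5 times as follows; the causes were not tested. Without the 4 arrays that stand apart, counts were 7 in NES tumors against normal (2 with all arrays), 5 in SYN1 against GFAP cortex tumors (0), 8 in NES against GFAP hippocampus tumors (2), 4 in GFAP hippocampus against GFAP cortex tumors (1), 4 in SVZ against GFAP cortex tumors (0) and 1 for the GFAP change in hippocampus minus that in cortex (0). SYN1 against GFAP cortex tumors gave 1 under centring, 1 under quantile normalization and 1 with the low signal filter. NES against GFAP hippocampus tumors gave 0 under centring, 1 under quantile normalization, 0 with only the arrays compared and 4 with GFAP hippocampus tumors 1 to 4 only. GFAP hippocampus against GFAP cortex tumors gave 3 under centring, 0 with only the arrays compared and 3 with GFAP hippocampus tumors 1 to 4 only. Normal hippocampus against normal cortex gave 1 under quantile normalization and 7 with only the arrays compared. With the replicate block, counts were 5 in GFAP hippocampus against GFAP cortex tumors, 8 in NES against GFAP hippocampus tumors and 1 between normal regions. In each of these the samples are known to share only a number. The other comparisons stayed within 1.5 times under the block.

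Leaving out each array in turn gave 7 to 10 members in GFAP cortex tumors, 14 to 21 in GFAP hippocampus tumors, 12 to 14 in SYN1 tumors, 1 to 2 in NES tumors and 9 to 11 in SVZ tumors against normal. It gave 0 to 3 in SYN1 against GFAP cortex tumors, 0 to 4 in NES against GFAP hippocampus tumors, 1 to 3 in GFAP hippocampus against GFAP cortex tumors, 0 to 1 in SVZ against GFAP cortex tumors, 0 to 2 in SVZ against GFAP hippocampus tumors, 1 to 2 between normal regions and 0 for the difference of GFAP changes.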
